A study of Mus musculus with 6 samples.

Results

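The genes described here encode the nuclear subunits of respiratory complex III, complex IV and ATP synthase, the enzymes that complete mitochondrial oxidative phosphorylation. They were chosen by symbol, with names beginning Uqcr (complex III), Cox4 to Cox8 followed by a letter from a to c or a digit (complex IV) or Atp5 (ATP synthase), leaving out pseudogenes and the genes of the mitochondrial genome. Of 32285 genes in the files, 41 symbols matched and 38 had at least 20 transcript counts over all libraries. They comprised 8 genes of complex III, 13 of complex IV and 17 of ATP synthase. Cox7b2, Cox8b and Cox8c had 1, 2 and 0 counts and were not followed further. Cox4i1, Cox4i2, Ndufa4 and Cyc1 are subunits of complexes III or IV whose symbols the rule does not match, and they are given beside the members.

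The study asked how a high-fat diet and bariatric surgery change gene expression in single cells of the small intestinal epithelium. Male C57BL/6J mice, about 30 weeks old at collection, had been on their diet for 16 weeks before surgery and were sampled after an overnight fast 5 weeks after it. LFD sham mice received a low-fat diet and a sham operation, HFD sham mice a high-fat diet and a sham operation, and HFD VSG mice a high-fat diet and vertical sleeve gastrectomy (VSG), in which most of the stomach is removed. Jejunal cells were pooled from 3 mice of each sham group and 2 HFD VSG mice, and each group gave 1 crypt-labelled and 1 villus-labelled library, so no difference between groups could be set against variation between mice or preparations.

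Complex III passes electrons from ubiquinol to cytochrome c, and complex IV passes them on to oxygen, while both pump protons across the inner mitochondrial membrane. ATP synthase lets protons flow back through a ring of c subunits in the membrane, which turns a rotor inside the catalytic F1 head. A few subunits of these enzymes come from the mitochondrial genome (mt-Cytb, mt-Co1, mt-Co2, mt-Co3, mt-Atp6 and mt-Atp8), and the members below are the subunits made from nuclear genes. Some subunits exist as paralogs used in different tissues: Cox7a1 is known from heart and skeletal muscle, Cox7a2 is the form found in most tissues, and Cox7a2l is known as a factor that joins complexes III and IV. In the intestine, stem cells at the crypt base divide, and their daughters become absorptive enterocytes that move up the villus and are shed at its tip.

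The c subunit is the clearest case of one protein made from several genes. Atp5g1 (chromosome 11, 96068852 to 96075670), Atp5g2 (chromosome 15, 102662864 to 102672352) and Atp5g3 (chromosome 2, 73908447 to 73911326), all on the minus strand of GRCm38, differ in the import sequence that is cut off in the mitochondrion. The last 228 coding bases of each, from the GENCODE vM21 transcripts, are shown because they encode the same 75 amino acids and a stop codon. Capitals mark the positions at which the 3 sequences are not all alike.
Atp5g1: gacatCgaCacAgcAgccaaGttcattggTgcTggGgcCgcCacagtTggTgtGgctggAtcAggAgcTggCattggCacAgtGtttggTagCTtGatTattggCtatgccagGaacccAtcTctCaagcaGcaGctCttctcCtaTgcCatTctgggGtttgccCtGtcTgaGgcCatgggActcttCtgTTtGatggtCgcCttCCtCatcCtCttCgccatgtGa
Atp5g2: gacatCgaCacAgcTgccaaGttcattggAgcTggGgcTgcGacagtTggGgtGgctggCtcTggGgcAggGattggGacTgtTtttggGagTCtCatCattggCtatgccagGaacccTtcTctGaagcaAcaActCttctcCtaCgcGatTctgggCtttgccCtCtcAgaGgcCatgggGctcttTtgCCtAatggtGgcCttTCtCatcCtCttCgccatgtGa
Atp5g3: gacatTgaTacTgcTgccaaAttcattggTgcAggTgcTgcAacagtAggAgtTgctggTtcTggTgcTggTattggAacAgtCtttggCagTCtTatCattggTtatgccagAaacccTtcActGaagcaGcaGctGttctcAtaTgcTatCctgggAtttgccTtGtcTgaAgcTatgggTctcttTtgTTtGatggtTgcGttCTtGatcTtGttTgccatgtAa
Without the stop codon, Atp5g1 and Atp5g2 differed at 34 of 225 bases (84.9% identical), Atp5g1 and Atp5g3 at 45 (80.0%) and Atp5g2 and Atp5g3 at 48 (78.7%), with no amino acid changed. These libraries count 3′ ends, and none of the 38 members overlapped another counted gene on the same strand, while 12 overlapped a counted gene on the opposite strand.

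The promoters of Cox7a1 and Atp5g2 are shown because these paralogs differed in opposite directions between enterocyte-like and stem-like cells. Each runs from 250 bases before to 50 bases after the RefSeq start in GRCm38.p6, at chr7:30183921-30184220 on the plus strand for Cox7a1 and at chr15:102670998-102671297 on the minus strand for Atp5g2. Capitals mark matches to CCAAT, the letters of the CCAAT box, in Cox7a1, and to GCATGCGC, the core of the NRF1 motif, in Atp5g2, on either strand.
Cox7a1: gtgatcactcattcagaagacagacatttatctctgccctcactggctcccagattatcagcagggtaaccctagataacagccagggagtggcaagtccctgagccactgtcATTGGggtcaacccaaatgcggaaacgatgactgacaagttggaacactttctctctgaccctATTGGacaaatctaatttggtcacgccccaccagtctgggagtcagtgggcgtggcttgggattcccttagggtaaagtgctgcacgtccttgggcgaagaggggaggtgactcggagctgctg
Atp5g2: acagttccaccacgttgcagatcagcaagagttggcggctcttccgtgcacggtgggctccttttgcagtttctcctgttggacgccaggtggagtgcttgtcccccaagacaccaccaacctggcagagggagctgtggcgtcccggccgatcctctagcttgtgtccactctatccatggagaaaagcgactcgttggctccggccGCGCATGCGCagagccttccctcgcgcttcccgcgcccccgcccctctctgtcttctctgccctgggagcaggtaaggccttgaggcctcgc
Cox7a1 held 2 CCAAT matches, and Atp5g2 held 2 overlapping NRF1 matches, which are the same site read on both strands. RefSeq promoters of 300 bases were at hand for 31 of the 38 members and for 27025 genes in all. The NRF1 letters lay in 6 members (19.4%) and in 2.80% of all promoters, and CCGGAAG, the core bound by ETS factors such as GABPA, lay in 10 members (32.3%) and in 9.12% of all promoters. CCAAT lay in 17 members (54.8%) against 37.9% of all promoters, and AAGGTCA, letters bound by estrogen-related receptors, in 4 (12.9%) against 4.66%. A match of letters is a description of these windows and not evidence of binding.

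Across the 6 libraries, 7765 to 12012 barcodes were called as cells, with 60522766 to 155522445 transcript counts (unique molecular identifiers, UMIs), and 23554 of the 59457 barcodes were kept after filters on genes, mitochondrial share and doublets. The clusters were made without the members, the mitochondrial genes and the genes of complexes I and II, and were named by marker genes, so the classes do not rest on the levels given below. The enterocyte-like and stem-like classes held all 12 and all 9 of their markers, respectively, among the genes raised in at least 1 of their clusters. Cluster 1 met no class and was led by Gm3776, Reg1 and Reg3a, and cluster 5, a shallow cluster of mixed markers, also kept its number. When classes were assigned cell by cell, 1490 of the 3113 cells of cluster 1 were enterocyte-like and 1618 took no class. Fabp6 and Slc10a2, which are best known from the ileum, were among the leading genes of 1 enterocyte-like cluster (cluster 3). The compartment labels went against the markers: stem-like cells made up 1.13% to 2.66% of non-immune cells in the crypt-labelled libraries and 2.69% to 10.8% in the villus-labelled ones, and enterocyte-like cells 61.8% to 68.2% and 29.2% to 45.5%. The libraries are therefore named by their labels and kept apart in all comparisons. In all, 420 barcode sequences occurred in more than 1 library.

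All 3 complexes followed nearly the same order of cell classes. Levels are given as CPM, the UMIs summed over the cells of a class in a library and scaled so that all genes have the same total in every class and library, and the limits quoted with them cover counting error only. The 38 members together took 28757 to 40052 CPM in cluster 1, 25292 to 35028 in cycling progenitor-like cells, 20771 to 37735 in enterocyte-like cells and 19880 to 27397 in stem-like cells. Tuft-like cells (13674 to 23973), goblet-like cells (11739 to 17887) and enteroendocrine-like (EEC-like) cells (7780 to 15461) were lower, and Paneth-like cells were lowest, at 1987 to 3051. This order held in 5 of 6 libraries, and in the HFD VSG villi enterocyte-like cells stood above cycling progenitor-like cells. Neighbouring classes were apart by more than counting error, except tuft-like and goblet-like cells in the LFD sham villi.

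Complex by complex, complex III in enterocyte-like cells was 3453, 4022 and 4376 CPM in the LFD sham, HFD sham and HFD VSG crypts and 3885, 4535 and 6773 CPM in the villi. Complex IV was 7051, 8228 and 8914 CPM in the crypts and 7826, 8969 and 14031 CPM in the villi. ATP synthase was 10267, 11281 and 11705 CPM in the crypts and 11524, 12700 and 16930 CPM in the villi. The HFD VSG villi stood above the other 5 libraries for each complex. In stem-like cells the ranges were 3425 to 4817 CPM for complex III, 6402 to 9443 for complex IV and 9935 to 13138 for ATP synthase, with the HFD VSG villi again highest.

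**Figure D1:**
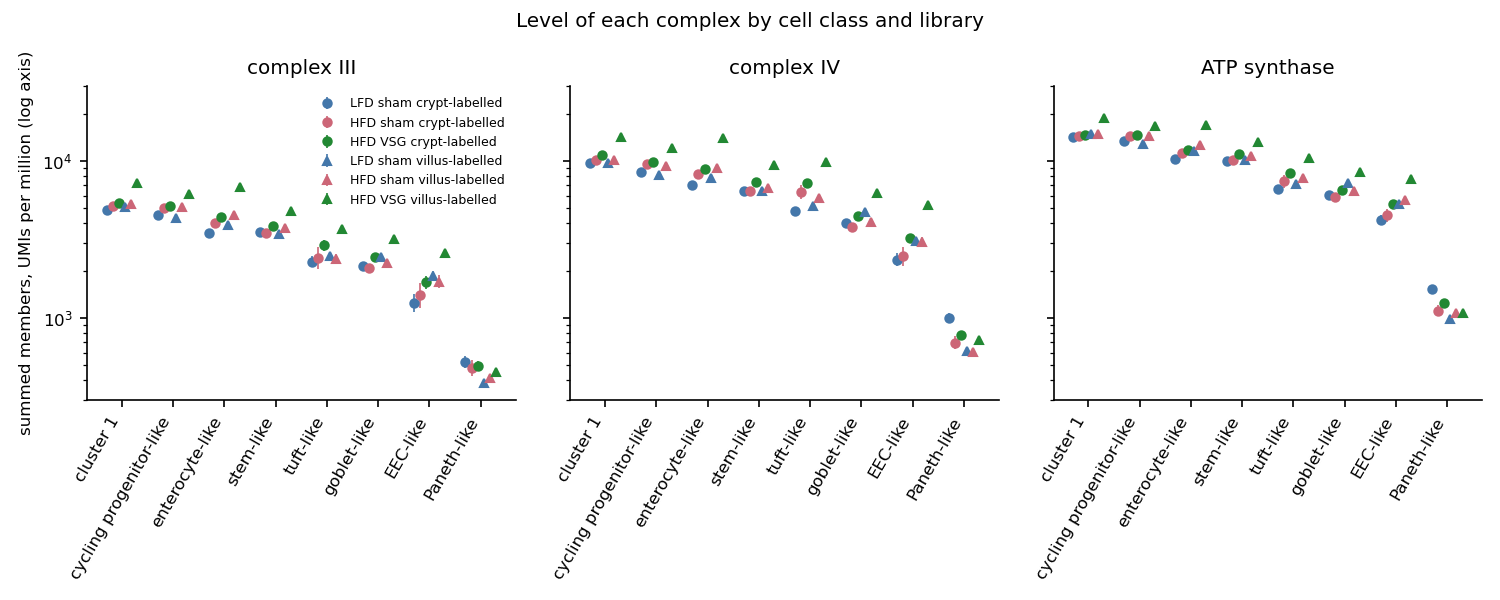
Summed level of each complex by cell class, in CPM on a log axis, with 1 point per library, bars for 95% counting limits and 1 panel per complex. Cluster 1 and cycling progenitor-like cells sit at the top and Paneth-like cells at the bottom of each panel, at 387 to 524 CPM for complex III, 608 to 1003 for complex IV and 989 to 1524 for ATP synthase.

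Single members mostly followed the summed complexes. Cluster 1 was the class most often highest over the 6 libraries for 28 of 38 members (in 3 of 6 for Cox7a1, Cox6a2 and Atp5md) and cycling progenitor-like cells for 7. The exceptions were complex IV genes: stem-like cells were highest for Cox6b2 and Cox7a2l, and tuft-like cells for Cox6c. With total UMIs as the scale, Paneth-like cells were the lowest class in all 6 libraries for 35 members, and secreted products took most of their UMIs, as given below. In enterocyte-like cells the highest median level was that of Atp5b, the catalytic beta subunit (1169 to 1551 CPM), followed by Cox8a (887 to 2096 CPM) and Cox6c (1008 to 1789 CPM). Apart from the rare Cox6a2 and Cox6b2, both at most 6.71 CPM, the lowest medians were those of Cox7a2l (191 to 460 CPM), Uqcrc2, a core subunit of complex III (215 to 373 CPM), and Atp5g2 (175 to 558 CPM). The 3′ counts are not divided by gene length, since each molecule is counted once.

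Enterocyte-like cells carried slightly more of complex IV and ATP synthase than stem-like cells in all 6 libraries and more of complex III in 5, while the median of all genes was lower. The members together differed by a median of 0.23 on the log2 scale (0.06 to 0.46 over the 6 libraries), complex III by 0.21 (-0.04 to 0.49), complex IV by 0.32 (0.14 to 0.57) and ATP synthase by 0.17 (0.05 to 0.37). The median gene of 10536 tested lay at -0.53 and the median member at 0.22. Their mitochondrially encoded partners were also higher in enterocyte-like cells, by a median of 0.52 (0.28 to 0.70). Past 0.5 in all 6 libraries, 5 of 38 members were higher (Cox6a1, Cox7a1, Cox7a2, Atp5o and Atp5md) against 15.3% of all genes, and 2 were lower (Cox6b2 and Atp5g2) against 37.1%. The share of higher members was thus near the background, and the share of lower members below it. Scaling each class by median-of-ratios size factors instead of total UMIs set the median ratio at 1.05, and classes assigned cell by cell set it at 0.44.

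The largest differences were between paralogs of the same subunit. Cox7a1, the muscle form, was at 233, 340 and 373 CPM in enterocyte-like cells of the LFD sham, HFD sham and HFD VSG crypts and at 272, 386 and 526 CPM in the villi. In stem-like cells it was at 11.1, 34.6 and 26.1 CPM in the crypts and 14.5, 24.1 and 20.4 CPM in the villi. The 2 classes did not overlap in any library, with a median log2 ratio of 4.12 (3.30 to 4.68). Free RNA at the stated fractions would supply 254% and 165% of the stem-like level of Cox7a1 in the HFD sham crypts and villi and 31.9% to 57.8% in the other 4 libraries, so its stem-like levels in HFD sham cannot be told apart from free RNA. Cox7a2l went the other way, at 191 to 460 CPM in enterocyte-like and 443 to 628 CPM in stem-like cells, with a median log2 ratio of -1.04 (-1.30 to -0.45).

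Among all Cox7a transcripts, Cox7a1 made up 23.1% to 28.2% in enterocyte-like cells, 13.2% to 25.7% in cluster 1, 4.22% to 12.7% in cycling progenitor-like cells and 1.25% to 3.91% in stem-like cells. Cox7a2l made up 17.1% to 21.1% in enterocyte-like and 48.1% to 54.4% in stem-like cells. Cox7a2, the common form, was the steadiest of the set, at 53.3% to 58.0% and 44.0% to 50.3%. The shares that differed most were thus those of Cox7a1 and Cox7a2l. Cox7a2 itself was at 585 to 1197 CPM in enterocyte-like and 388 to 658 CPM in stem-like cells, with a median log2 ratio of 0.68 (0.54 to 0.86).

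**Figure D2:**
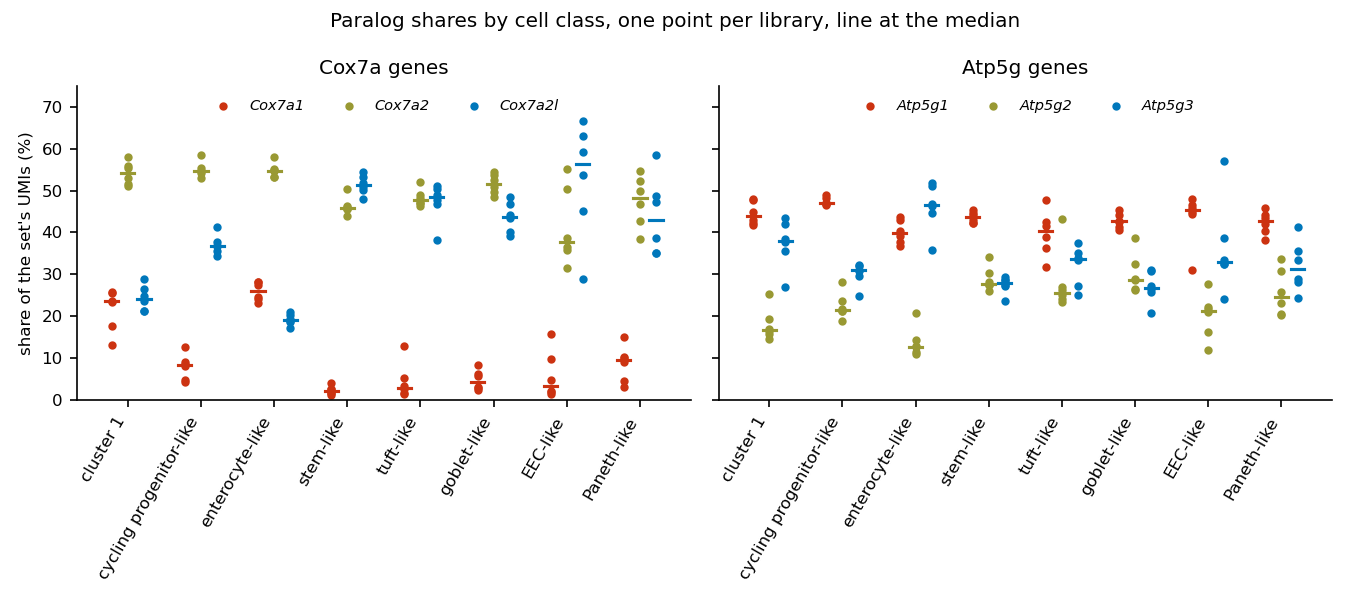
Share of each paralog among the transcripts of its set, in percent, by cell class, with 1 point per library and a line at the median, for the Cox7a genes and for the Atp5g genes that encode the c subunit. In enterocyte-like cells Cox7a1 takes 23.1% to 28.2% and Atp5g3 35.7% to 51.9%, and in stem-like cells they take 1.25% to 3.91% and 23.5% to 29.3%.

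The 3 genes of the c ring also differed from each other between the classes. Atp5g2 was at 175, 197 and 254 CPM in enterocyte-like cells of the LFD sham, HFD sham and HFD VSG crypts and 228, 261 and 558 CPM in the villi, against 539, 571 and 681 CPM and 560, 558 and 888 CPM in stem-like cells. Its median log2 ratio was -1.36 (-1.63 to -0.67), and it was lower in enterocyte-like cells in all 6 libraries. Atp5g3 was higher in enterocyte-like cells, with a median of 0.57 (0.41 to 0.66). Atp5g1 had a median of -0.35 (-0.54 to 0.10), lower in enterocyte-like cells in all libraries but 1 with total UMIs, and 0.50 with median-of-ratios scaling.

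As shares of the Atp5g transcripts, Atp5g3 made up 35.7% to 51.9% in enterocyte-like and 23.5% to 29.3% in stem-like cells, and Atp5g2 made up 11.0% to 20.7% and 26.0% to 34.3%. Atp5g1 was at 36.8% to 43.6% and 42.2% to 45.4%. Since the mature protein is the same for the 3 genes, as the coding ends above show, these shares differ in the gene used and not in the subunit encoded.

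Other members of the class comparison were less far apart. Atp5md, a small subunit of the membrane part of ATP synthase, had a median log2 ratio of 1.02 (0.94 to 1.27), and Cox6a1, the common form of subunit 6a, one of 0.70 (0.66 to 0.75). Both were higher in enterocyte-like cells in all 6 libraries. Atp5o, a subunit of the stalk that holds the F1 head, was at 0.67 (0.53 to 0.78), and Uqcrfs1, the Rieske iron-sulfur protein of complex III, at 0.64 (0.43 to 0.86). Below 0 lay, besides the paralogs named, Uqcr10 (-0.22), Uqcr11 (-0.20) and Uqcrc2 (-0.11), all of complex III, and Atp5j (-0.04). Median-of-ratios scaling is shifted by a median of -0.83 in this comparison, which turned these 4 and Atp5g1 positive and left the medians of Cox6b2 (-1.40), Atp5g2 (-0.53) and Cox7a2l (-0.19) negative. With that scaling Cox7a2l ranged from -0.49 to 0.13 over the libraries, so its sign did not hold in each, and Atp5g2 ranged from -0.81 to -0.09.

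**Figure D3:**
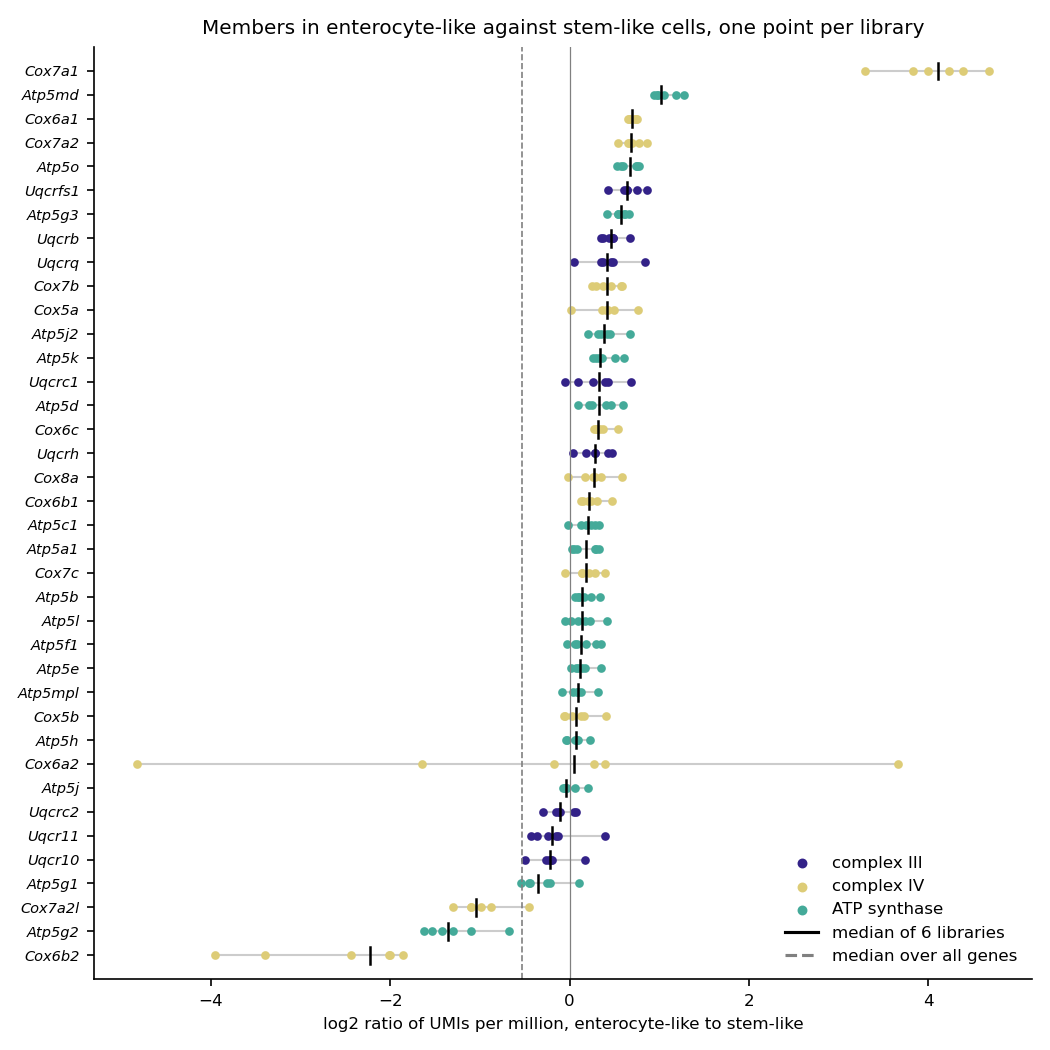
Log2 ratio of enterocyte-like to stem-like CPM for each of the 38 members, with 1 point per library, a black bar at the median and a dashed line at the median of all genes (-0.53). Cox7a1 stands far to the right at a median of 4.12, and Cox6b2, Atp5g2 and Cox7a2l stand to the left at -2.23, -1.36 and -1.04, while the spread of Cox6a2 comes from sums under 3 UMIs set to 3.

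Cox4i1, a subunit of complex IV, and the other genes of the pathway stood as follows in the same comparison. Cox4i1 was at 1695, 2019 and 2188 CPM in enterocyte-like cells of the crypts and 1795, 2182 and 2833 CPM in the villi, against 1512 to 2080 CPM in stem-like cells, so it was higher in enterocyte-like cells in each library. Cyc1, the cytochrome c1 of complex III, had a median log2 ratio of 0.30. Ndufa4, a subunit of complex IV once assigned to complex I, was at 601, 710 and 752 CPM in enterocyte-like cells of the crypts and 677, 791 and 1237 CPM in the villi, against 685 to 1008 CPM in stem-like cells, and Cox4i2 had 1 UMI in all in these 2 classes. The 37 tested genes of the nuclear complex I list lay at a median near 0, with 2 higher past 0.5 in all libraries. This list was made by symbol and includes Ndufa4, here and in the comparisons below. Of 6 carriers of electrons and metabolites (cytochrome c, adenine nucleotide and phosphate carriers and VDAC channels), 3 were higher in all libraries, with a median of 0.62. Assembly factors were lower past 0.5 in all libraries for 3 of 6 genes of complex III (median -1.21), 6 of 19 of complex IV, where 1 was higher (median -0.04), and 1 of 5 of ATP synthase (median -0.18). Of 10 regulators of mitochondrial genes, 3 were higher and 4 lower. Of all genes tested, 15.3% were higher and 37.1% lower by this measure.

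Among the enterocyte-like clusters 0, 2, 3 and 6, the summed members were lowest in cluster 6. Cluster 6 was led by Ly6m, Clca4a, Ada, Nt5e and Slc28a2, and a list of 6 villus-tip genes was at 10524 to 20174 CPM there, against 603 to 1176 CPM in cluster 0. The summed members in cluster 6 were lower than in cluster 0 by log2 differences of -1.87, -1.78 and -1.34 in the LFD sham, HFD sham and HFD VSG crypts and of -1.74, -1.65 and -1.29 in the villi. Against clusters 2 and 3 the differences ranged from -1.47 to -1.01 and from -1.28 to -0.96. The lower level held in each library and for each complex, from -1.86 to -1.31 for complex III, -2.05 to -1.40 for complex IV and -1.76 to -1.20 for ATP synthase.

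Genome of origin separated the subunits in this comparison. The mitochondrially encoded partners were slightly higher in cluster 6 than in cluster 0, by 0.17 to 0.39, and the genes of the nuclear complex I list were lower, at a median of -1.80. The median of all 8772 genes tested was -0.25, and that of the members was -1.54. Among members whose mean reached 100 UMIs, the lowest were Atp5g2 (-2.63), Atp5g1 (-2.46) and Cox5a (-2.37), and the highest were Atp5d, the delta subunit of the F1 part (-1.12), and Atp5j, coupling factor 6 (-1.14). Cells of cluster 6 were also shallower, at a median of 4674.5 to 15393 UMIs, while cluster 0 had 15331.5 to 34896. A list of 6 genes typical of damaged droplets, such as Malat1 and Gm42418, was at 36885 to 195959 CPM in cluster 6 and 15925 to 62166 CPM in cluster 0. With these genes and the mitochondrial genes taken out of the totals, the difference was -1.59 to -1.23 for complex III and -1.49 to -1.12 for ATP synthase. The part of depth and droplet damage in it was not tested.

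**Figure D4:**
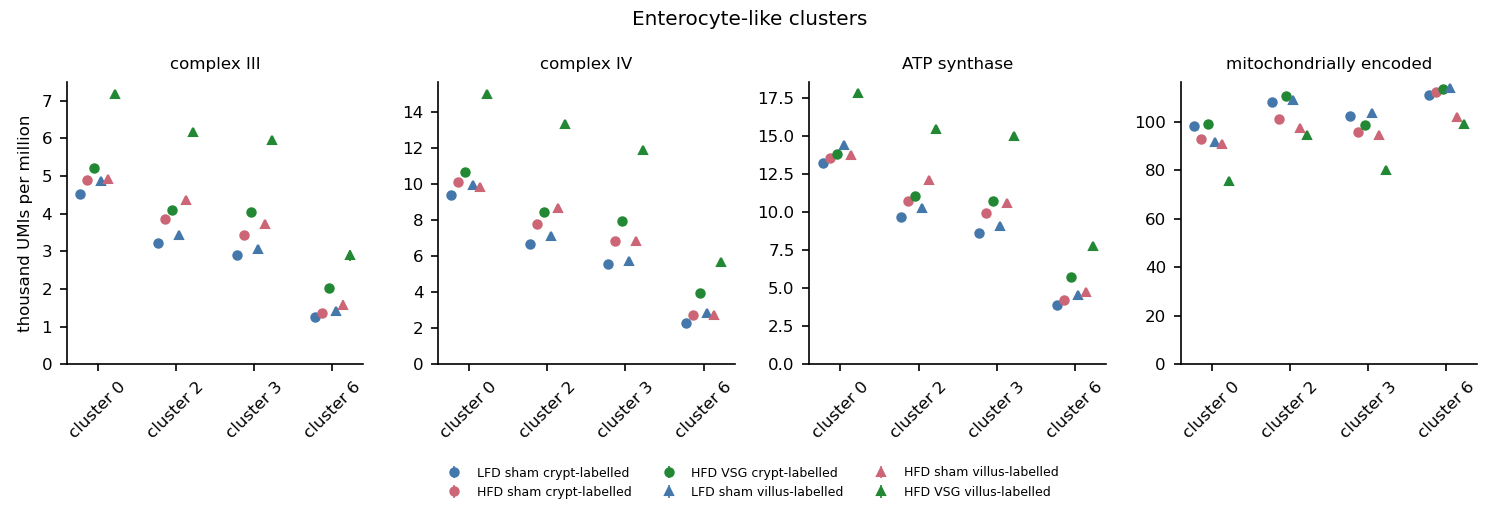
Summed level of each complex and of the mitochondrially encoded partners in the 4 main enterocyte-like clusters, in CPM divided by 1000, with 1 point per library and 95% counting limits that are mostly smaller than the points. Cluster 6, the cluster led by villus-tip genes, is the lowest of the 4 for complexes III, IV and ATP synthase in each library, and not for the mitochondrially encoded partners.

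Cox6b2, known as the testis form of subunit 6b, was an exception in cluster 6. It was at 39.2, 56.8 and 29.1 CPM in cluster 6 of the LFD sham, HFD sham and HFD VSG crypts and 23.0, 41.5 and 34.5 CPM in the villi, from 18 to 109 UMIs per library. In cluster 0 it was at 0.378 to 0.918 CPM, from 4 to 14 UMIs. The ranges of the 2 clusters did not overlap, and stem-like cells were at 14.8 to 24.4 CPM. Over whole named classes, which pool cluster 6 with the other enterocyte-like clusters, Cox6b2 made up at most 3.55% of the Cox6b transcripts in any library. The rest was Cox6b1, the common form, and the share within cluster 6 alone is not given here. Cox6a2, the muscle form of subunit 6a, reached at most 0.450% of the Cox6a transcripts in any class and library.

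In Paneth-like cells, all 3 complexes were far below stem-like cells, with all members together at a median log2 ratio of -3.23 (-3.61 to -2.70). Defensins and other secreted products of these cells, such as Lyz1, Ang4 and Itln1, took 70.5% to 80.1% of the UMIs of these cells. Without those UMIs in the totals, complex III was at 1396 to 2266 CPM, complex IV at 2059 to 3615 and ATP synthase at 3624 to 5513. These ranges overlapped those of EEC-like cells with all UMIs (1247 to 2605, 2341 to 5233 and 4192 to 7622 CPM). For complex III they were 1885 against 1247 CPM in the LFD sham crypts and 2184 against 1689 CPM in the HFD VSG crypts. The lowest rank of Paneth-like cells in all 6 libraries thus rests on total UMIs. The free RNA that the stated contamination would contribute came to 219% of the Paneth-like level of the members in the HFD sham crypts, 132% in their villi and 15.9% to 36.3% in the other 4 libraries, so Paneth-like levels in the HFD sham libraries cannot be told apart from free RNA. In the HFD sham crypts the same share was 16.8% in cluster 1, 17.3% in cycling progenitor-like, 21.2% in enterocyte-like, 24.9% in stem-like, 31.0% in tuft-like, 42.6% in goblet-like and 59.8% in EEC-like cells. In the HFD sham villi it was 9.15% to 26.6% over these classes, and in the other 4 libraries at most 8.39%.

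Between HFD sham and LFD sham, the members were slightly higher in HFD sham enterocyte-like cells of both compartments, and the stem-like sums were closer. The summed log2 ratios in the crypts and villi were 0.13 and 0.18 in cycling progenitor-like cells and 0.05 and 0.02 in cluster 1. They were 0.24 and 0.11 in tuft-like and 0.10 and 0.006 in EEC-like cells. Goblet-like cells went the other way, at -0.05 and -0.18. In the crypts the enterocyte-like sum was 23531 against 20771 CPM, a log2 ratio of 0.18 (0.17 to 0.19), with 0.22 for complex III, 0.22 for complex IV and 0.14 for ATP synthase. In the villi it was 26204 against 23235 CPM, a log2 ratio of 0.17 (0.17 to 0.18), with 0.22, 0.20 and 0.14. The mitochondrially encoded partners were lower in both, at -0.08 and -0.10, and none of 37 genes of the nuclear complex I list was past 0.5 in either compartment.

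Few single members reached a log2 ratio of 0.5. In enterocyte-like cells of the crypts 2 of 38 were past it upward (Cox6a2 and Cox7a1) and none downward, where 6.27% of all genes were past it upward and 9.41% downward. In the villi the same 2 were past it upward and Cox6b2 downward, against 7.42% and 8.29% of all genes. Cox7a1 was the highest of the members with at least 100 UMIs in both compartments, at 340 against 233 CPM in the crypts (0.55, limits 0.50 to 0.59) and 386 against 272 CPM in the villi (0.50, limits 0.45 to 0.56). Next were Cox8a in the crypts (1184 against 887 CPM, 0.42) and Uqcrh, the hinge protein of complex III, in the villi (1140 against 899 CPM, 0.34). Of the same well-counted members Atp5k was lowest in both, at -0.04 and 0.01, followed by Atp5b (0.01) in the crypts and Atp5e (0.02) in the villi. Cox6a2 rested on 5 and 38 UMIs in the LFD sham and HFD sham crypts and 12 and 55 in the villi.

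The enterocyte-like difference was not even across its clusters. Within clusters 0, 2, 3 and 6 it was 0.07, 0.20, 0.24 and 0.16 in the crypts and -0.04, 0.27, 0.24 and 0.05 in the villi. Cluster 6, where the members were low, made up 17.9% of enterocyte-like cells in the LFD sham crypts and 19.2% in the HFD sham crypts, and 12.1% and 5.03% in the villi, and the damaged-droplet list was at 84425 and 72430 CPM in the crypts and 89542 and 54656 CPM in the villi. A list of 8 genes of lower-villus enterocytes, such as Reg3b and Reg3g, was at 15882 and 12643 CPM in enterocyte-like cells of the LFD sham and HFD sham crypts and at 35365 and 17019 CPM in those of the villi, and in stem-like cells at 4782 and 1957 CPM and at 4964 and 1623 CPM. The study reports lower Reg3g under the high-fat diet in nearly all of its clusters, so diet and villus position cannot be told apart in this list. With at most 10% mitochondrial UMIs per cell, the villus ratio was 0.03. The part of cluster shares, these lists and the mitochondrial filter in the difference was not tested.

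In stem-like cells the sums were 20057 against 19880 CPM in the crypts (0.01, limits -0.03 to 0.05) and 21154 against 19944 CPM in the villi (0.08, limits 0.07 to 0.10). None of 35 members tested was past 0.5 in the crypts, where 8.49% and 7.73% of all genes were past it upward and downward. In the villi only Cox7a1 of 37 was past it, upward, against 6.09% and 6.3% of all genes, but it rested on 36 UMIs in the HFD sham villi, where free RNA at the stated fraction would supply 165% of its level. The largest differences of well-counted genes were Cox7c (-0.24) and Atp5j (0.23) in the crypts and Atp5k (0.26) and Uqcrq (0.26) in the villi, where Uqcrc1 (-0.15) and Cox8a (-0.05) were lowest with limits that spanned 0. In the crypts the limits of Atp5j, Cox6b1 (0.16) and Atp5c1 (-0.18) spanned 0. Thinned to equal depth per cell, the crypt sum was -0.09.

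The HFD sham levels of Paneth-like cells cannot be told apart from free RNA, so their ratios describe the libraries and not the cells. In the crypts the members were at 2284 against 3051 CPM (-0.42, limits -0.51 to -0.33), with complex IV at -0.53, ATP synthase at -0.46 and complex III at -0.14. Of 35 members tested, 15 had ratios past 0.5 downward and 1 upward (Uqcrq), against 23.3% and 12.4% of all genes. Only Cox8a, Uqcrh and Atp5b had a mean of at least 100 UMIs there, at -0.33, -0.49 and -0.56. In the villi the members were at 2089 against 1987 CPM (0.07, limits 0.03 to 0.12), 1 of 36 was past 0.5 upward and none downward, against 40.8% and 3.19% of all genes, whose median was 0.40. Median-of-ratios scaling, which is shifted by 0.46 from total UMIs in these villus cells, turned the villus value to -0.38, and the crypt value was -0.43.

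The crypt value rested on 27 HFD sham and 63 LFD sham cells, with medians of 14437 and 3030 UMIs. Cells with at least 1500 genes gave -0.04, and with cells thinned to equal depth it was -1.31. In the villi Paneth-like Atp5k (0.48) and Uqcrq (0.38) were highest and Cox7a2l (-0.23) and Cox6b1 (-0.22) lowest among members whose mean reached 100 UMIs. The limits of Cox7a2l and Cox6b1 spanned 0.

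Between HFD VSG and HFD sham, the members were higher in HFD VSG in enterocyte-like, stem-like, tuft-like, goblet-like and EEC-like cells of the villus-labelled libraries, and the ratio was smaller in the crypt-labelled ones. This comparison and the one of the diets share the HFD sham libraries. In enterocyte-like cells of the villi the sum was 37735 against 26204 CPM, a log2 ratio of 0.53 (0.52 to 0.53), with 0.58 for complex III, 0.65 for complex IV and 0.41 for ATP synthase. Of 38 members, 21 were higher past 0.5 and none was lower, where 20.6% and 16.8% of all genes were past it upward and downward, and the median of all genes was 0.01. The mitochondrially encoded partners were lower (-0.22), as were the mitochondrially encoded subunits of complex I (-0.41). Of 37 genes of the nuclear complex I list, which includes Ndufa4, 21 were higher past 0.5. In the crypts the mitochondrially encoded partners were not lower in HFD VSG enterocyte-like cells, whose level of 104568 CPM was the highest of the 6 libraries.

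By role, the ranges of single members overlapped in these villus enterocyte-like cells. The 5 supernumerary subunits of complex III differed by 0.66 as a sum (single members 0.51 to 0.95), and the 3 core subunits by 0.29 (-0.03 to 0.52). In ATP synthase the 5 membrane subunits differed by 0.64 as a sum (0.44 to 0.87), the 4 stalk subunits by 0.43 (0.30 to 0.69), the 3 c-ring genes by 0.40 (0.01 to 1.09) and the 5 subunits of the F1 head by 0.27 (0.02 to 0.78). In villus stem-like cells the supernumerary and core sums of complex III were 0.37 and 0.36, and the membrane and F1 head sums of ATP synthase 0.42 and 0.20. In crypt enterocyte-like cells these were 0.13 and 0.082, and 0.065 and 0.069. Atp5g2 was the highest single member, at 558 against 261 CPM (1.09, limits 1.05 to 1.14), followed by Uqcr11 at 909 against 470 CPM (0.95, limits 0.92 to 0.99). Uqcrc1, a core subunit of complex III, was at 420 against 430 CPM (-0.03), and Atp5g3 at 963 against 954 CPM (0.01). The paralogs of the c subunit were therefore unequal in this contrast, with Atp5g1 at 0.51 between them.

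**Figure D5:**
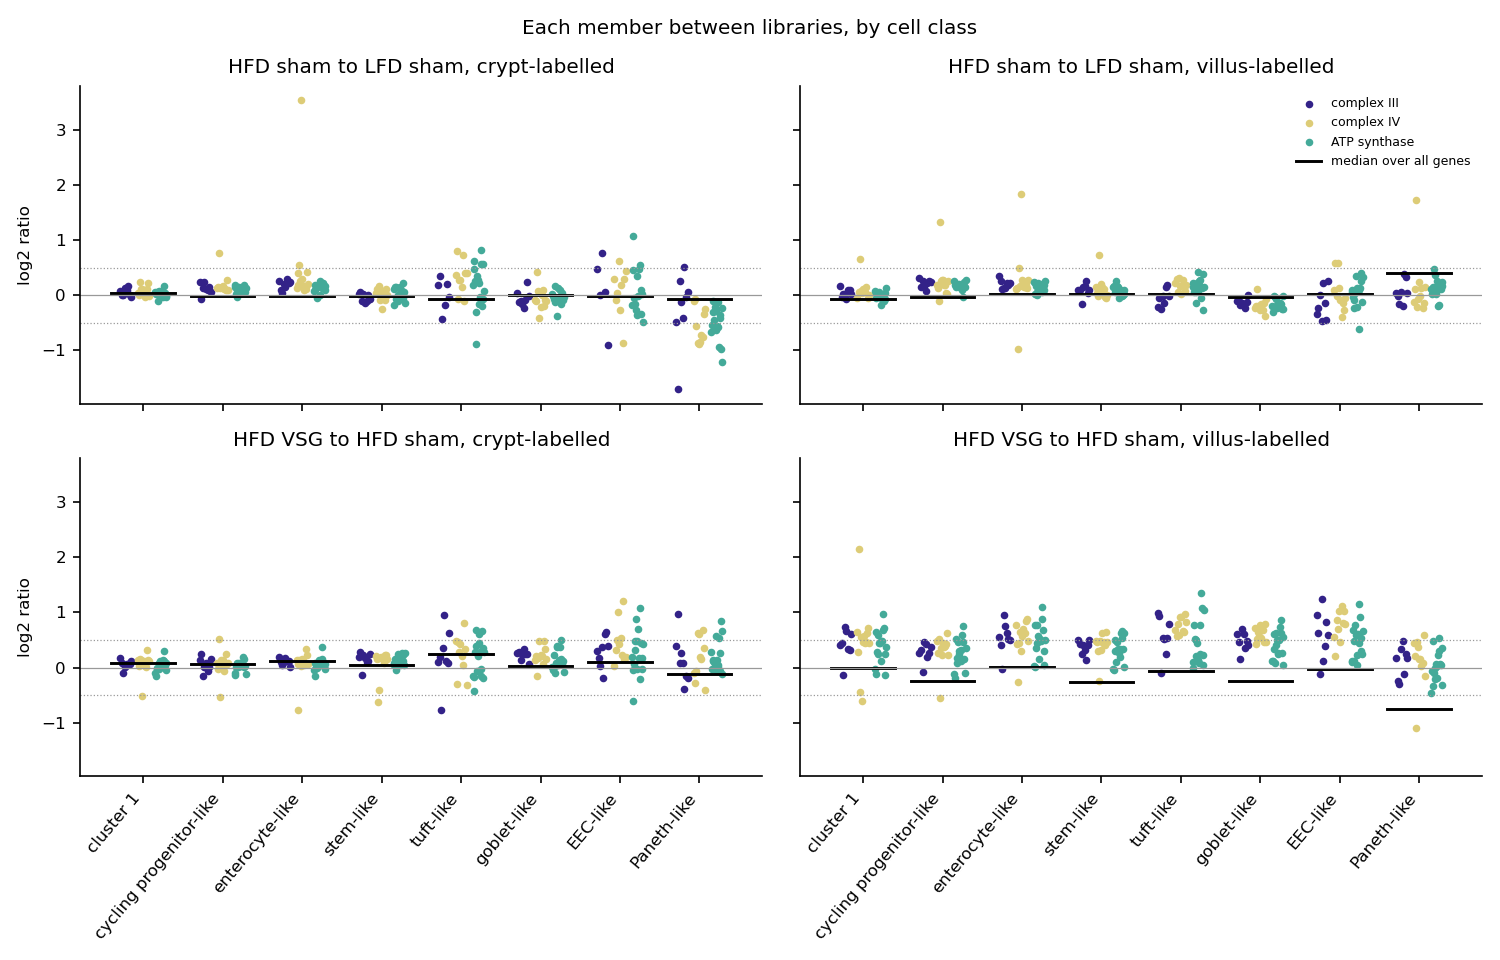
Log2 ratio between libraries for each tested member, with 1 point per member coloured by complex, by cell class, for HFD sham to LFD sham (top) and HFD VSG to HFD sham (bottom) in the crypt-labelled and villus-labelled libraries. Black lines are the median of all tested genes, and dotted lines mark 0.5 in either direction; in the villus-labelled HFD VSG to HFD sham panel most members lie above the black line, which is at 0.01 for enterocyte-like and -0.27 for stem-like cells.

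The members were also higher in stem-like, tuft-like, goblet-like and EEC-like cells of the villus-labelled HFD VSG library. In stem-like cells the sum was 27397 against 21154 CPM (0.37, limits 0.36 to 0.39), and 8 of 37 members were past 0.5 upward and none downward, against 8.04% and 34.4% of all genes, whose median was -0.27. The highest were Atp5g2 at 888 against 558 CPM (0.67) and Cox8a at 1399 against 895 CPM (0.64), and the lowest were Cox7a1 (-0.24, limits -0.75 to 0.31) and Atp5g3 (-0.04). The mitochondrially encoded partners were lower in stem-like cells (-0.44), as were those of complex I (-0.91). Tuft-like cells had 23 of 35 members past 0.5 upward (sum 0.59), against 21.6% of all genes, and none downward, against 28.9%. Goblet-like cells had 18 of 36 upward (sum 0.49), against 6.95%, and none downward, against 30.9%. Median-of-ratios scaling, which is shifted by -0.35 from total UMIs in stem-like and -0.27 in goblet-like cells, put 31 members of each past 0.5, against 23.2% and 18.4% of all genes. EEC-like cells had 21 of 35 upward (sum 0.58), against 18.9%, and none downward, against 20.5%. The tuft-like values rest on 33 HFD VSG and 54 HFD sham cells, and the EEC-like values on 27 and 38. Paneth-like cells, whose HFD sham level cannot be told apart from free RNA, were at 2247 against 2089 CPM (0.11, limits 0.05 to 0.16), with Cox8a (0.58) and Atp5g2 (0.53) past 0.5 upward and Cox7a1 downward of 36 members, against 3.33% and 63.3% of all genes. The size of this ratio depended on the scaling, which is shifted by -0.75 with median-of-ratios and then gave 0.85. Atp5c1 (-0.47) and Atp5f1 (-0.34) were the lowest well-counted members there.

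The HFD VSG villi differed from the HFD sham villi in other ways, some of them shared by the HFD VSG crypts described below. Enterocyte-like cells of the HFD VSG villi had a median of 33655.5 UMIs against 13674 in the HFD sham villi, the damaged-droplet list was at 17612 against 54656 CPM and the lower-villus list at 18328 against 17019 CPM. Droplets with fewer than 100 UMIs, which hold free RNA and no cell, carried the members at 33878 CPM in the HFD VSG villi and 16693 CPM in the HFD sham villi. Within clusters 0, 2, 3 and 6 the enterocyte-like ratio was 0.49, 0.48, 0.63 and 0.85, and with cells thinned to equal depth it was 0.62. The part of the library in the difference cannot be told apart from that of the surgery.

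In the crypt-labelled libraries the same comparison gave smaller ratios in enterocyte-like, stem-like, tuft-like, goblet-like and EEC-like cells, but not in Paneth-like cells. Enterocyte-like cells were at 24996 against 23531 CPM (0.09, limits 0.08 to 0.09), with no member past 0.5 upward and only Cox6b2 downward of 38, against 9.14% and 3.48% of all genes, whose median was 0.12. Subtracting free RNA by the fractions the study states turned this ratio to -0.03, and median-of-ratios scaling to -0.02. HFD VSG enterocyte-like cells of the crypts were also deeper, at a median of 16848.5 against 10478 UMIs. Their damaged-droplet list was at 25312 against 72430 CPM, and their lower-villus list at 9661 against 12643 CPM. In crypt stem-like cells the damaged-droplet list was at 16854 against 63365 CPM. The part of these in the ratios was not tested. Atp5g2 (254 against 197 CPM, 0.37) and Cox7a2l (262 against 207 CPM, 0.34) were highest, and Cox6b2 (3.93 against 6.71 CPM, -0.77) and Atp5g3 (822 against 915 CPM, -0.16) lowest. Atp5g2 was thus the highest and Atp5g3 among the lowest members of enterocyte-like cells in both compartments.

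Crypt-labelled stem-like cells were at 22196 against 20057 CPM (0.15, limits 0.11 to 0.18), with none of 37 members past 0.5 upward and only Cox6b2 downward, against 11.8% and 8.87% of all genes. Uqcrc2 (0.28) and Atp5md (0.27) were highest, and Uqcrc1 (-0.13) and Atp5k (-0.04) lowest, and the limits of all 4 spanned 0. Paneth-like cells, with the same limit on the HFD sham level, were at 2515 against 2284 CPM (0.14, limits 0.05 to 0.23), and 8 of 35 members were past 0.5 upward and none downward, against 8.92% and 22.5% of all genes. Among its well-counted genes Uqcrh was at 0.39, Cox8a at 0.35, Atp5b at 0.13 and Uqcrq at -0.39, with limits that spanned 0 for each. Subtracting a fraction of 0.1 as free RNA turned the Paneth-like sum to -1.29.

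Set against LFD sham instead, HFD VSG enterocyte-like cells had log2 ratios of 0.27 in the crypts and 0.70 in the villi, stem-like cells 0.16 and 0.46, and Paneth-like cells -0.28 and 0.18. Median-of-ratios scaling, shifted by -0.33 and -0.29 in Paneth-like cells, turned the crypt value to 0.054 and gave 0.47 in the villi. In enterocyte-like cells Cox7a1 (0.68) and Cox8a (0.64) were highest in the crypts and Atp5g2 (1.29) and Uqcr11 (1.09) in the villi, and Cox6b2 (-0.37) and Atp5k (-0.04) were lowest in the crypts and Uqcrc1 (0.07) and Atp5a1 (0.15) in the villi. In stem-like cells Cox8a (0.35) and Atp5j (0.35) were highest in the crypts and Cox7a2 (0.76) and Atp5mpl (0.73) in the villi. The lowest in stem-like cells were Uqcrc1 (-0.23) and Atp5c1 (-0.11) in the crypts, both with limits that spanned 0, and Atp5a1 (0.10) and Uqcrc1 (0.10) in the villi. In Paneth-like cells of the crypts Cox7b (-0.67) and Cox7c (-0.66) were lowest and Uqcrq (0.12) and Cox8a (0.01) highest, and in those of the villi Atp5md (0.60) and Uqcrfs1 (0.59) were highest and Uqcrc1 (-0.47) and Atp5c1 (-0.35) lowest. The limits of crypt Uqcrq and Cox8a and of villus Uqcrc1 spanned 0. Paneth-like cells had medians of 36148.5 UMIs in the HFD VSG and 3030 in the LFD sham crypts, and 33745 and 52011.5 in the villi. The part of depth in these ratios was not tested.

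The study names Cox7a2, the common form of subunit 7a, among genes lowered by the high-fat diet and raised by VSG in its stem and Paneth clusters. The study used counts corrected for free RNA, its own clusters and a test over cells, and the values here are uncorrected sums. In stem-like cells Cox7a2 was at 403, 406 and 456 CPM in the LFD sham, HFD sham and HFD VSG crypts and at 388, 428 and 658 CPM in the villi. The crypt values were not apart beyond counting error, with log2 ratios of 0.01 (limits -0.26 to 0.29) for HFD sham to LFD sham and 0.17 (-0.06 to 0.40) for HFD VSG to HFD sham, and in the villi these were 0.14 (0.00 to 0.28) and 0.62 (0.50 to 0.74). Free RNA at the stated fractions would supply 3.21%, 35.9% and 5.42% of these stem-like levels in the LFD sham, HFD sham and HFD VSG crypts. In the villi it would supply 4.32%, 16.7% and 3.06%. The ratios above are not corrected for this uneven part, and its effect on them was not tested. In Paneth-like cells Cox7a2 was at 89.9, 48.8 and 74.4 CPM in the crypts and 38.7, 45.7 and 50.9 CPM in the villi. There the ratios were -0.88 (-1.53 to -0.28) and 0.61 (0.01 to 1.25) in the crypts and 0.24 (-0.07 to 0.55) and 0.16 (-0.19 to 0.51) in the villi, so the villus values were not apart beyond counting error. The crypt ratios both rest on 30 UMIs from 27 HFD sham cells, whose level cannot be told apart from free RNA.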

How the data were processed

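Jejunal epithelial cells were profiled with 10x Genomics 3′ v3.1 chemistry in 6 libraries, each from pooled mice. The deposited values are raw UMI counts per gene and barcode, which the authors made with Cell Ranger 6.0.0 on mm10, over all barcodes and over called cells, without correction for free RNA.

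Called barcodes with at least 750 genes and at most 20% mitochondrial UMIs were kept, and doublets were removed by a simulation-based neighbour score at a rate of 0.8% per 1000 barcodes. Counts of each library were normalised with sctransform 0.4.2, without the members, mitochondrial genes or genes of complexes I and II. The 6 libraries were then aligned by anchor-based integration in Seurat 5.3.0 (R 4.3.3) with 2000 variable genes. Cells were clustered on the integrated values with 30 principal components and a resolution of 0.4, which gave 18 clusters. A cluster took a class name when over 50% of that class's markers were at least 2-fold higher there and detected in 10% of cells or more. It stayed unnamed where its leading genes held more markers of another class or damaged-droplet genes, or where it was shallow and no marker of its own led it.

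UMIs were summed per class and library in Python 3.11.15 (numpy 2.4.6, scipy 1.17.1, pandas 2.3.3) and scaled to CPM. Limits are exact 95% Poisson limits for sums and exact conditional binomial limits for ratios. With 1 library per group no test between groups was possible and no p-value was made, so a log2 ratio of 0.5 describes size only. A gene entered a comparison when its mean reached 20 UMIs, and sums under 3 UMIs were set to 3. Named genes were the paralog sets, Cox7a2, and the 2 highest and 2 lowest members by contrast, or 3 by class, among those whose mean reached 100 UMIs, and other genes were named after their values were seen. The members and gene lists were chosen with earlier results of these data known. Scripts were tested on simulated data. Alternatives covered free RNA, scaling, cell filters, doublets, depth and class assignment.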

Additional observations from a re-analysis of the deposited data

Results flagged for a closer look

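In Paneth-like cells the summed members had a log2 ratio of HFD sham to LFD sham of -0.42 in the crypt-labelled and 0.072 in the villus-labelled libraries, which are of opposite sign with total-UMI scaling, and this difference was not tested. Median-of-ratios size factors gave -0.43 in the crypts and -0.38 in the villi. The crypt value rested on 27 HFD sham and 63 LFD sham cells, and the HFD sham levels of this class cannot be told apart from free RNA, so no direction is read from either.

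Droplets with fewer than 100 UMIs, which hold free RNA, carried the members at 17921 CPM in the HFD sham crypts and 24397 CPM in the HFD VSG crypts, above the 16124 CPM of the LFD sham crypts. In the villus-labelled libraries they carried 16693 CPM in HFD sham and 33878 CPM in HFD VSG, above the 15689 CPM of LFD sham.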

How the results depend on the processing

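Of 1926 values recomputed, 1803 kept their sign and 1012 moved by less than the counting interval, and the largest move for all members in the classes below was 1.43. Between groups, no paired analysis was possible because each group had 1 library per compartment, so leaving out a library was not possible there either. The enterocyte-like to stem-like comparison was made within each of the 6 libraries and is given with its range over them. The log2 ratios below are for all members, and the cause of each move was not tested. HFD sham to LFD sham in crypt-labelled enterocyte-like cells (0.18) was 0.29 with the stated free RNA subtracted, 0.16 without mitochondrial genes in totals, 0.21 with median-of-ratios scaling, 0.17 at 10% mitochondrial UMIs, 0.21 at 1500 genes, 0.19 with doublets kept, 0.14 with classes cell by cell, 0.23 thinned and 0.16 at resolution 0.8. In the villus-labelled library (0.17) the same settings gave 0.24, 0.16, 0.19 and 0.027, then 0.090 cell by cell, 0.31 thinned and 0.11 at resolution 0.8. Within clusters 0, 2, 3 and 6 the crypt values were 0.069, 0.20, 0.24 and 0.16 and the villus values -0.036, 0.27, 0.24 and 0.052. Stem-like cells gave 0.058 at 10% mitochondrial UMIs, 0.062 cell by cell and -0.094 thinned in the crypts (0.01), and 0.11 with stated free RNA subtracted, 0.036 with median-of-ratios scaling, 0.038 cell by cell and 0.061 thinned in the villi (0.08). Crypt-labelled Paneth-like cells (-0.42) gave -1.30 with a free RNA fraction of 0.1, -0.041 at 1500 genes, -0.52 with doublets kept and -1.31 thinned, and their 15 members past 0.5 downward became 32 of 32 tested with stated free RNA subtracted, which put all 32 under 3 UMIs in HFD sham and so fixed the count (53.3% of all genes), 3 of 31 at 1500 genes (11.2%), 4 of 4 thinned (57.2%), 2 of 35 at a size of 1 (7.80%) and 1 of 3 with a mean of at least 100 UMIs (19.8%).

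HFD VSG to HFD sham in crypt-labelled enterocyte-like cells (0.09) was -0.028 with stated free RNA subtracted, 0.053 with 0.1, 0.10 without mitochondrial genes, -0.016 with median-of-ratios scaling, 0.028 at 1500 genes, 0.042 cell by cell, 0.25 thinned and 0.047 at resolution 0.8. In the villi (0.53) the first 4 gave 0.44, 0.49, 0.49 and 0.54, then 0.59 at 10% mitochondrial UMIs, 0.51 at 1500 genes, 0.46 cell by cell, 0.62 thinned and 0.48 at resolution 0.8. Within clusters 0, 2, 3 and 6 the crypt values were 0.057, 0.075, 0.17 and 0.49 and the villus values 0.49, 0.48, 0.63 and 0.85. Crypt stem-like cells (0.15) gave 0.11 with 0.1, 0.088 at 10% mitochondrial UMIs, 0.11 cell by cell and 0.19 thinned, and villus stem-like cells (0.37) gave 0.33, 0.30, 0.32 and 0.72 under the first 4 and 0.33 at 10% mitochondrial UMIs. Crypt Paneth-like cells (0.14) gave -1.29 with 0.1, 0.35 with median-of-ratios scaling, 0.41 with doublets kept and 0.68 thinned. The 21 higher members of villus enterocyte-like cells were 1 at a size of 1 (6.60% of all genes). The 8 of stem-like cells were 6 with stated free RNA subtracted (9.45%), 5 with 0.1 (7.55%), 5 without mitochondrial genes (6.87%), 31 with median-of-ratios scaling (23.2%) and 0 at a size of 1 (1.54%), and the 18 of goblet-like cells were 25 (8.09%), 11 (5.58%), 31 (18.4%) and 0 (0.698%) with stated free RNA subtracted, 0.1, median-of-ratios scaling and a size of 1. Median-of-ratios scaling turned villus Paneth-like cells from 0.072 to -0.38 for HFD sham to LFD sham and gave 0.85 for HFD VSG to HFD sham (0.11). The enterocyte-like to stem-like ratio (0.23) was 1.05 with median-of-ratios scaling and 0.44 cell by cell.

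Subtraction left no value for contrasts with Paneth-like cells of the HFD sham crypts at the stated fractions, or for ATP synthase in those of the HFD VSG villi at 0.1. Resolution 0.8, single clusters and the cell-by-cell limits were chosen after seeing the data.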
